A study of Mus musculus with 14 samples.

Results

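Libraries of sorted T cells were read here, whose sorting gates, where given in full, select the αβ receptor. The 8 genes described here are those of the other kind, the γδ T cell receptor, and of its cell type. They were chosen by name: the γ chain constant genes Tcrg-C1, Tcrg-C2 and Tcrg-C4, the δ chain constant gene Trdc, the transcription factor gene Sox13, the kinase gene Blk, the surface receptor gene Cd163l1 and the cytokine gene Il17a. All 8 were found among the 50508 gene symbols of both count tables, and 7 of them passed the filter on low counts in each table; Il17a did not. They were chosen with earlier results of these data known.

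The study concerns ILTCk, which are αβ T cells of an innate-like, killer type, and their progenitors in the thymus (ILTCkP). The 10 bulk RNA-seq libraries formed 5 groups of 2. ILTCkP and CD8SP, the CD8 single-positive thymocytes, came from the thymus of C57BL/6 mice. The remaining groups, namely NK1.1+ ILTCk with NK1.1- ILTCk and conventional T cells bearing PD-1 (PD1+ Tconv), came from mice labelled retrogenic, which carry a T cell receptor introduced into their blood stem cells. The labels do not name that receptor, give no age or sex, and do not say whether a library pools animals. Per the labels' protocols, NK1.1+ ILTCk and PD1+ Tconv were sorted from tumours as CD45+ TCRβ+ CD8α+ cells negative for CD4 and for the γδ receptor, NK1.1+ ILTCk being PD-1-negative and PD1+ Tconv NK1.1-negative. The protocol text for the thymus breaks off: it gives ILTCkP as negative or dull for CD4 and CD8α and negative for the CD1d tetramer, and stops before any use of TCRβ or the γδ receptor and before the gate of CD8SP. For NK1.1- ILTCk neither gate nor tissue is given in the sources used here; it is placed among the tumour groups because its counts stand in their table. The characteristics of both ILTCk groups say ILTCkP where the titles say ILTCk, and the titles were followed. Below, the groups are written NK1.1+ cells and NK1.1- cells.

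A γδ receptor pairs a γ chain with a δ chain, each assembled by joining variable, joining and, for δ, diversity segments to a constant gene. In the mouse each γ constant gene lies in a cluster with its own variable and joining segments, while the δ segments and Trdc lie inside the α chain locus, so that a rearrangement from a variable to a joining segment of α removes them from that chromosome. T cells that end up with an αβ receptor can still rearrange and transcribe γ genes. Sox13 is a high mobility group transcription factor of the γδ lineage, Blk is a SRC family kinase of B cells and of mouse γδ cells that make IL-17, Cd163l1 (SCART1) is a scavenger receptor found on such γδ cells, and Il17a encodes the cytokine IL-17A.

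On GRCm38 the γ constant genes lie on chromosome 13: Tcrg-C1 from 19214103 to 19217024 and Tcrg-C4 from 19344558 to 19352756 on the plus strand, and Tcrg-C2 from 19304649 to 19307551 on the minus strand. Trdc lies on chromosome 14 from 54142851 to 54148868 on the plus strand. Blk lies on the same chromosome from 63372836 to 63417037, Sox13 on chromosome 1 from 133382303 to 133424377, Cd163l1 on chromosome 7 from 140218267 to 140231145 and Il17a on chromosome 1 from 20730905 to 20734496. Blk and Sox13 are on the minus strand, Cd163l1 and Il17a on the plus strand. Trdc overlaps Gm43434 and Trdv5 on the opposite strand; these had few counts in every library, with sums of 0 to 3 for Gm43434 and 0 to 49 for Trdv5 over a group.

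**Figure D1:**
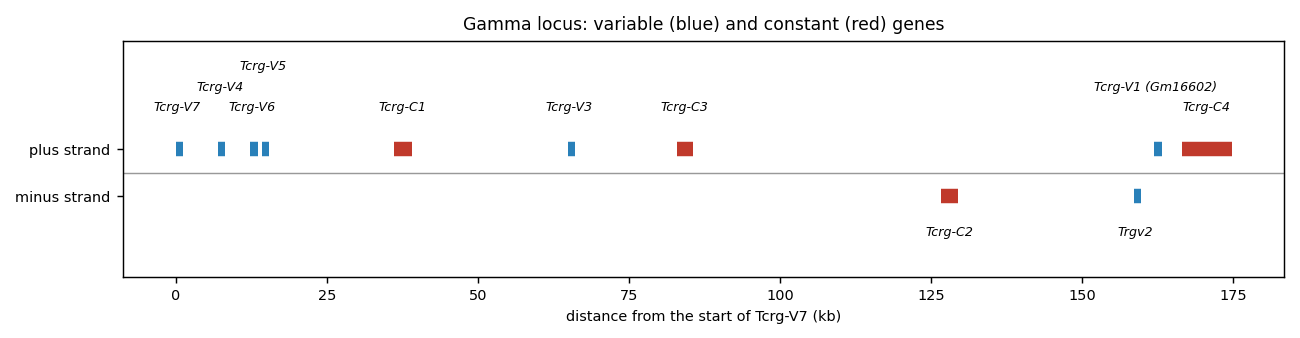
Map of the mouse γ locus on GRCm38, with distance from the start of Tcrg-V7 in kilobases on the x axis and strand on the y axis. Variable genes are blue and constant genes red; Tcrg-C2 and Trgv2 are alone on the minus strand, and Tcrg-V1, listed in the count tables as Gm16602, lies next to Tcrg-C4.

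The γ constant genes resemble each other, which bears on how far their counts can be told apart. The first 120 bases of the spliced constant region are shown for Tcrg-C1, Tcrg-C2, Tcrg-C3 and Tcrg-C4 (5′ to 3′, GENCODE M21 transcripts, GRCm38, chr13:19214103-19214222 plus strand, chr13:19307432-19307551 minus strand, chr13:19260885-19261004 plus strand and chr13:19344558-19344677 plus strand). Capitals mark the bases that differ from Tcrg-C1.
Tcrg-C1: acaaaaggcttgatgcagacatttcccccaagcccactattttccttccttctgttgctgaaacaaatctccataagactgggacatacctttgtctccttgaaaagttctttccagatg
Tcrg-C2: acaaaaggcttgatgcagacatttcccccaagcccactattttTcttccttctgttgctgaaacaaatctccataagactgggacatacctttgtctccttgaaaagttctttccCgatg
Tcrg-C3: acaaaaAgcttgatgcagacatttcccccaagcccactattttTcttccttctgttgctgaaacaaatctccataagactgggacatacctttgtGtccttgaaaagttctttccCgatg
Tcrg-C4: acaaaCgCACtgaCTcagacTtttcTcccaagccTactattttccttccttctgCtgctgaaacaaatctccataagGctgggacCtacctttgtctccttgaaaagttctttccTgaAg

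Over this stretch Tcrg-C2 differed from Tcrg-C1 at 2 bases, Tcrg-C3 at 4 and Tcrg-C4 at 14. Over the whole transcripts Tcrg-C1 and Tcrg-C2 were 94.5% identical, and 17.9% of the 50-base windows of Tcrg-C1 occurred unchanged in Tcrg-C2. Tcrg-C1 and Tcrg-C3 were 96.9% identical and shared 17.6% of those windows. Tcrg-C4 was 64.1 to 70.0% identical to the other 3 and shared 0 such windows with them. Read length and the treatment of reads with several matches were not stated, so the split of counts among Tcrg-C1, Tcrg-C2 and Tcrg-C3 is uncertain, while Tcrg-C4 shares no 50-base window with them.

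Library totals ran between 16530085 and 32097301 counts. The sort markers followed the group names on average: Klrb1c (NK1.1) stood at 68.6 to 309 CPM in NK1.1+ cells against 12.4 to 29.9 in NK1.1- cells, and at 2.35 to 39.5 in PD1+ Tconv, and Pdcd1 (PD-1) at 5.05 to 7.42 CPM in NK1.1+ cells and 17.7 to 29.2 in NK1.1- cells against 518 to 753 in PD1+ Tconv. Cd8a stood at 14.6 to 34.8 CPM in ILTCkP against 1842 to 2116 CPM in CD8SP. CPM, the count relative to library size, was scaled by TMM within each table. RNA of gland epithelium was present in the tumour table, where Bpifa2, a salivary secretory gene, held 19.5% of the counts of PD1+ Tconv library 2. The 4 CD3 genes (Cd3d, Cd3e, Cd3g and Cd247) summed to 1947 and 369 CPM in NK1.1+ cells, 870 and 634 CPM in NK1.1- cells, and 2698 and 1736 CPM in PD1+ Tconv, with NK1.1+ library 2 the lowest. In the thymus they summed to 3070 and 3459 CPM in ILTCkP against 4263 and 4031 CPM in CD8SP. In bulk libraries, fewer cells expressing a gene and less of its RNA per cell cannot be told apart. The replicates are called biological, but nothing says they came from separate animals, so p-values measure only how these samples vary, and that spread may be technical.

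In the thymus the γ constant genes and Blk were high in ILTCkP and close to 0 in CD8SP. By edgeR's quasi-likelihood test, with p-values adjusted over all 14634 genes tested, 4 of the 7 members tested rose in ILTCkP and 0 fell; 4.71% of all genes tested were called, 3.38% as higher and 1.33% as lower. DESeq2 called 6 of the 7, all as higher, where it called 13.8% of all genes, 8.89% as higher and 4.93% as lower. Trdc and Sox13 were also higher in both ILTCkP libraries than in both CD8SP libraries, without an edgeR call. So was Il17a, from 13 and 10 counts against 1 and 0, which did not pass the filter. Cd163l1 was slightly lower. The share of all genes that separate in this way is not given here. With 2 libraries against 2, such separation has an exact permutation p of 0.333 at the least.

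Tcrg-C2, the γ constant gene with the most counts in every group but CD8SP, had 80.8 and 223 CPM in the ILTCkP libraries, against 1.03 and 0.411 CPM in the CD8SP libraries. Every ILTCkP library was far above every CD8SP library, and the groups did not overlap. The log2 fold change was 7.72 ± 0.77 (standard error, n = 2 each, adjusted p = 0.00911). It was 6.81 without ILTCkP library 2 and 8.52 without CD8SP library 1. The CD8SP level rests on 30 and 13 counts, the ILTCkP level on 2049 and 7271.

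Tcrg-C4, in the cluster of Tcrg-V1, had 41.3 and 72.4 CPM in ILTCkP, against 0.862 and 0.158 CPM in CD8SP, again without overlap. It rose by 6.81 ± 0.82 on the log2 scale (n = 2 each, adjusted p = 0.0138), with 8.47 without CD8SP library 1 and 6.04 without CD8SP library 2. This is the γ constant gene that shared no 50-base window with the other constant genes.

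Tcrg-C1, whose cluster holds most of the γ variable genes, had 28.5 and 55.1 CPM in ILTCkP, against 1.93 and 0.633 CPM in CD8SP. The groups did not overlap, and the log2 fold change was 5.03 ± 0.69 (n = 2 each, adjusted p = 0.0190). Leaving out CD8SP library 1 gave 6.05, and leaving out CD8SP library 2 gave 4.43. Both settings kept the call. Tcrg-C3, not among the 8 genes, had 0.709 and 1.99 CPM in ILTCkP against 0.0345 and 0 CPM in CD8SP (6.03 ± 1.36, adjusted p = 0.0731).

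Trdc, unlike the γ genes, was well above 0 in CD8SP too. It had 55.2 and 36.3 CPM in ILTCkP, against 16.2 and 14.3 CPM in CD8SP. Both ILTCkP libraries were above both CD8SP libraries, by 1.58 ± 0.34 on the log2 scale (n = 2 each, adjusted p = 0.0629), which is just short of the threshold of 0.05. The adjusted p was 4.43e-04 with DESeq2. With 1 library left out the edgeR call depended on which: adjusted p was 0.00336 without ILTCkP library 1 (1.26 on the log2 scale), 6.50e-05 without ILTCkP library 2 (1.85), 0.252 without CD8SP library 1 (1.69) and 0.416 without CD8SP library 2 (1.49). In such thymic fits a group is a single library assumed to vary like the other group's 2 libraries, so the smaller p-values do not strengthen the result.

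Sox13 stood at 19.3 and 7.11 CPM in ILTCkP, against 0.896 and 1.80 CPM in CD8SP. The ILTCkP libraries differed from each other but both lay above both CD8SP libraries. The fitted value was 3.28 ± 0.68 (n = 2 each, adjusted p = 0.0598 by edgeR and 1.90e-05 by DESeq2). With 1 library left out, the edgeR value was 2.40 without ILTCkP library 1 (adjusted p = 0.00739), 3.83 without ILTCkP library 2 (6.62e-05), 2.89 without CD8SP library 1 (0.0553) and 3.87 without CD8SP library 2 (0.00352). Leaving out an ILTCkP library takes the spread from CD8SP alone and so removes the difference between the ILTCkP libraries.

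Blk had 59.1 and 19.2 CPM in ILTCkP, against 0.310 and 0.759 CPM in CD8SP, from 1500 and 626 counts against 9 and 24. It rose by 6.17 ± 0.81 on the log2 scale (n = 2 each, adjusted p = 0.0167). Without ILTCkP library 1 the value was 5.15, without ILTCkP library 2 it was 6.76, and without CD8SP library 2 it was 6.95. Blk is also a B cell gene, and 0 of the 7 B cell markers tested (of 10) were called in this comparison; their summed level was 758 to 875 CPM in ILTCkP and 765 to 893 CPM in CD8SP, most of it Ighm, and their median log2 fold change was 1.80 against 0.01 over all genes. DESeq2 called 1 of them, Igkc, as higher (2.13 and 37.3 CPM in ILTCkP against 3.79 and 2.47 CPM in CD8SP). The B cell genes Cd79a (1.14 and 6.77 against 1.45 and 1.68 CPM) and Pax5 (0.197 and 0.0613 against 0.207 and 0 CPM) were at low levels in both groups. The part of B cell RNA in the Blk value was not tested.

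Cd163l1 did not follow the other members, and Il17a had too few counts to be tested. Cd163l1 had 8.20 and 8.28 CPM in ILTCkP, against 10.1 and 9.43 CPM in CD8SP, a difference of -0.25 ± 0.35 (n = 2 each, adjusted p = 0.720). Il17a had 13 and 10 counts in ILTCkP against 1 and 0 in CD8SP, higher in ILTCkP but too few to pass the filter. Fitted by edgeR with no filter, its log2 fold change was 4.30 ± 2.19 (adjusted p = 0.251).

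**Figure D2:**
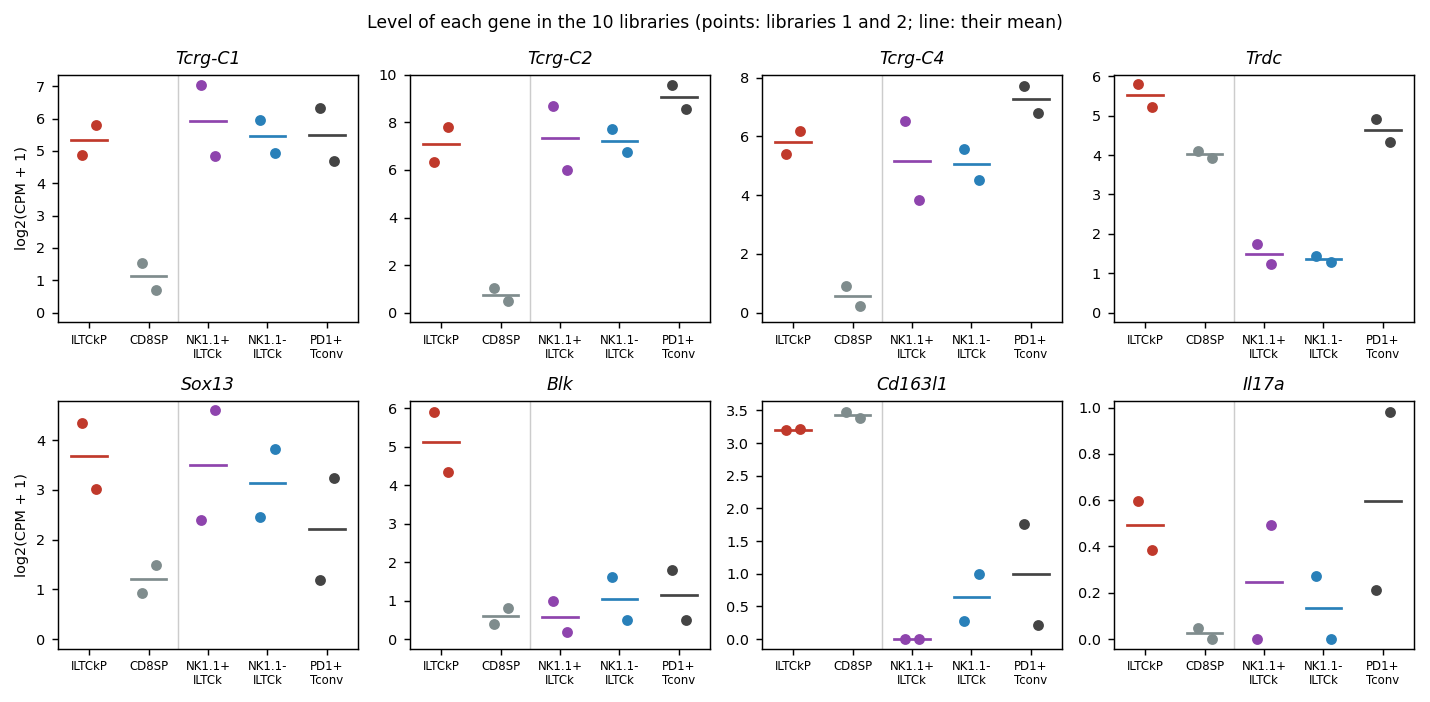
Level of each of the 8 genes in the 10 libraries as log2(CPM + 1), with CPM scaled by TMM within each table; points are libraries 1 and 2 of a group and lines their mean, and each panel has its own y axis. In the thymus (left of the grey line) the γ constants, Trdc, Sox13, Blk and Il17a are higher in ILTCkP than in CD8SP. Of these, edgeR called the γ constants and Blk but not Trdc or Sox13, and Il17a had too few counts to be tested. In the tumour table (right) Trdc is lower in both ILTCk groups than in PD1+ Tconv, without an edgeR call.

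By edgeR several γ variable segments were called in the thymus and no δ segment was, whereas DESeq2 called Trdc too. The list of γ and δ segments held 36 genes, of which 20 were tested in the thymus. Their median log2 fold change was 1.54 against 0.01 over all genes tested. DESeq2 called 9 of them as higher and 0 as lower, against 8.89% and 4.93% of all genes. By edgeR 6 rose and 0 fell in ILTCkP, against 3.38% and 1.33% of all genes. Beside the 3 γ constants these were Trgv2 (11.1 and 28.7 CPM in ILTCkP with 0 counts in CD8SP, hence at least 403-fold higher with 3 counts set over the group, adjusted p = 0.0139), the variable gene of the Tcrg-C2 cluster; Gm16602, listed by RefSeq as Tcrg-V1 (7.29 and 9.07 against 0.138 and 0 CPM, 6.85 ± 1.03, adjusted p = 0.0251); and Tcrg-V7 (1.104 and 1.655 CPM in ILTCkP with 0 counts in CD8SP, hence at least 27.9-fold higher, adjusted p = 0.0466). Tcrg-V4 had 1.46 and 6.62 CPM in ILTCkP against 0.0689 and 0 CPM in CD8SP (adjusted p = 0.0570). Of the δ variable segments, Trdv1 had 1.02 and 4.35 CPM in ILTCkP against 0.724 and 1.17 CPM in CD8SP (adjusted p = 0.355) and Trdv2-2 had 0.946 and 1.53 against 1.24 and 0.949 CPM (adjusted p = 0.898). Segments shared by α and δ were not called either; Trav14d-3-dv8 had 0.907 and 0.950 CPM against 2.52 and 2.88 CPM (adjusted p = 0.198). All joining and diversity segments were listed at 0.

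The αβ receptor constants and CD3 genes did not move with the γ genes. Of these 8 genes, 0 were called by edgeR and 0 by DESeq2, and their median log2 fold change was -0.17. Trac had 1279 and 1216 CPM in ILTCkP against 1712 and 1470 CPM in CD8SP, and Cd3g 561 and 1007 against 1539 and 1422 CPM (adjusted p = 0.171). Counted per CD3 RNA, the γ constants also stood apart: Tcrg-C1, Tcrg-C2 and Tcrg-C4 together gave 49.1 and 101 counts per 1000 CD3 counts in ILTCkP against 0.898 and 0.298 in CD8SP, a ratio of 136 between the geometric means. Trdc gave 18.0 and 10.5 counts per 1000 CD3 counts in ILTCkP against 3.81 and 3.55 in CD8SP, a ratio of 3.74. With 2 libraries a group an exact permutation test cannot go below p = 0.333, so no test of these ratios was made.

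Genes known from the γδ lineage and the IL-17 programme were partly high in ILTCkP. Of 28 listed, 25 were tested, with a median log2 fold change of 1.09. DESeq2 called 10 as higher and 1 as lower, against 8.89% and 4.93% of all genes. By edgeR 7 rose and 0 fell, against 3.38% and 1.33% of all genes. Sox5, a partner of Sox13 in the same gene family, had 122 and 96.2 CPM in ILTCkP against 1.41 and 6.01 CPM in CD8SP (4.87 ± 0.72, adjusted p = 0.0239). Zbtb16, which encodes PLZF, a factor of innate-like T cells, had 265 and 76.4 CPM in the ILTCkP libraries, while CD8SP held 0 counts of it (a rise of at least 3453-fold, adjusted p = 0.0116). The receptor genes Il1r1 (4.69 and 3.62 CPM against 0 counts, at least 83.9-fold higher, adjusted p = 0.0171) and Ccr6 (5.79 and 5.95 against 0.241 and 0.285 CPM, 4.46 ± 0.57, adjusted p = 0.0152) also rose. The other 3 edgeR calls were Etv5, Id2 and Id3. The IL-17 genes themselves stayed low: beside Il17a, Il17f had 0.828 and 0 CPM in ILTCkP against 0.103 and 0.190 CPM in CD8SP, and Il22 had 0 and 0.0613 against 0 and 0 CPM.

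Among the SRC family kinases and their regulators, 8 of 10 were tested, Blk not counted among them. DESeq2 called 2 as higher and 1 as lower, against 8.89% and 4.93% of all genes. EdgeR called 1 as higher and 0 as lower, against 3.38% and 1.33% of all genes. The same shares apply to the marker lists that follow. The edgeR call was Lyn, another kinase of B and myeloid cells. It had 40.0 and 63.1 CPM in ILTCkP against 0.758 and 1.96 CPM in CD8SP (5.23 ± 0.59, adjusted p = 0.0116). The T cell kinase Lck had 2469 and 1828 CPM against 2919 and 2513 CPM (adjusted p = 0.450), and the median of the list was -0.43. Markers of other cells differed too, here by edgeR unless DESeq2 is named. Of these, 0 of 7 macrophage markers and 0 of 2 epithelial markers tested were called (summed 18.5 to 29.0 CPM in ILTCkP against 20.1 to 23.3 CPM in CD8SP for macrophages), 1 early thymocyte marker rose (Kit) and 1 fell (Rag1), 2 natural killer and innate lymphoid markers rose (Kit and Tbx21) and 1 fell (Eomes), and 3 of 6 CD4 or regulatory T cell markers rose and 0 fell (Zbtb7b, Cd40lg and Foxp3). The early thymocyte list had a median log2 fold change of -1.02, and DESeq2 called 1 of its genes as higher and 2 as lower. It summed to 221 to 321 CPM in ILTCkP against 60.2 to 95.2 CPM in CD8SP. The CD4 and regulatory list had a median log2 fold change of 1.80 and summed to 70.2 to 109 CPM in ILTCkP against 13.8 to 32.5 CPM in CD8SP. The natural killer and innate lymphoid list had a median of 2.40 and summed to 406 to 460 CPM in ILTCkP against 91.0 to 92.9 CPM in CD8SP. Their part in the member values was not tested, and the γδ T cell markers are the 8 genes themselves.

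In the tumour table the γ constant genes were expressed in all 3 groups, conventional cells included, and Trdc was low in both ILTCk groups. By edgeR, 0 of the 7 members tested were called in NK1.1+ cells against PD1+ Tconv, where 0% of 18091 genes were called and 2590 had an unadjusted p under 0.05; DESeq2 called 2 members as lower and 6.91% of genes, 3.66% as higher and 3.24% as lower, and limma-voom 0 members and 3 genes. In NK1.1- cells against PD1+ Tconv edgeR again called 0 of 7 members and 0% of genes, with 2147 genes at an unadjusted p under 0.05, while DESeq2 called 1 member as lower and 3.8% of genes, 2.08% as higher and 1.72% as lower, and limma-voom 0 and 0. Both comparisons use the same PD1+ Tconv libraries.

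Tcrg-C2 had 413 and 62.8 CPM in NK1.1+ cells, 208 and 106 CPM in NK1.1- cells, and 752 and 381 CPM in PD1+ Tconv. The first NK1.1+ library was above the lower PD1+ Tconv library, whereas both NK1.1- libraries were below both. The log2 fold changes against PD1+ Tconv were -1.25 ± 0.86 for NK1.1+ cells (adjusted p = 0.568) and -1.85 ± 0.88 for NK1.1- cells (adjusted p = 0.450). Neither passed the threshold.

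Tcrg-C4 had 90.5 and 13.3 CPM in NK1.1+ cells, 46.8 and 22.1 CPM in NK1.1- cells, and 211 and 109 CPM in PD1+ Tconv. All 4 ILTCk libraries were below both PD1+ Tconv libraries, but the differences of -1.63 ± 0.87 for NK1.1+ (adjusted p = 0.451) and -2.22 ± 0.89 for NK1.1- (adjusted p = 0.405) were not called. Tcrg-C1 had 131 and 27.4 CPM in NK1.1+ cells, 61.6 and 29.7 CPM in NK1.1- cells, and 79.7 and 24.6 CPM in PD1+ Tconv. Its 3 groups overlapped, with log2 fold changes of 0.60 ± 0.84 for NK1.1+ (adjusted p = 0.801) and -0.19 ± 0.84 for NK1.1- (adjusted p = 0.951). The sign for NK1.1+ turned to -0.93 without NK1.1+ library 1 and to -0.04 without PD1+ Tconv library 2; that for NK1.1- turned to 0.26 without NK1.1- library 2 and to 0.91 without PD1+ Tconv library 1.

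Trdc had the smallest unadjusted p of the 7 members in both comparisons with PD1+ Tconv. It had 2.32 and 1.35 CPM in NK1.1+ cells and 1.71 and 1.46 CPM in NK1.1- cells, against 29.1 and 19.3 CPM in PD1+ Tconv. All 4 ILTCk libraries were below 2.5 CPM and both PD1+ Tconv libraries above 19 CPM. NK1.1+ cells differed by -3.71 ± 0.59 on the log2 scale (n = 2 each, unadjusted p = 3.78e-04, adjusted p = 0.0875) and NK1.1- cells by -3.93 ± 0.60 (unadjusted p = 2.83e-04, adjusted p = 0.285). DESeq2 called both, with adjusted p-values of 2.56e-08 and 1.46e-08. With each library left out in turn the NK1.1+ value lay between -4.15 and -3.37 and the NK1.1- value between -4.20 and -3.58.

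Sox13 went the other way in its group means without passing the threshold. Its levels were 4.25 and 23.3 CPM in NK1.1+ cells, 4.46 and 13.1 CPM in NK1.1- cells, and 1.27 and 8.43 CPM in PD1+ Tconv. Library 2 was the higher one in each group, and the groups overlapped. In each group library 2 also had the lower CD3 sum, at 369 CPM in NK1.1+ cells, 634 in NK1.1- cells and 1736 in PD1+ Tconv. Which cells gave the Sox13 counts was not tested. The differences from PD1+ Tconv were 1.52 ± 1.13 for NK1.1+ (adjusted p = 0.598) and 0.87 ± 1.11 for NK1.1- (adjusted p = 0.791); they became -0.16 without NK1.1+ library 2 and -0.05 without NK1.1- library 2.

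Blk, Cd163l1 and Il17a were close to 0 in the tumour table. Blk had 0.983 and 0.135 CPM in NK1.1+ cells, 2.04 and 0.411 CPM in NK1.1- cells, and 2.45 and 0.405 CPM in PD1+ Tconv, with library 1 the higher one in each group. Its differences from PD1+ Tconv were -1.37 ± 1.37 (adjusted p = 0.709) and -0.24 ± 1.32 (adjusted p = 0.961). Cd163l1 had 0 counts in both NK1.1+ libraries, 7 and 22 counts in NK1.1- cells, and 75 and 2 counts in PD1+ Tconv. With 3 counts set over the NK1.1+ group it was at least 18.9-fold lower there than in PD1+ Tconv (edgeR adjusted p = 0.253, DESeq2 adjusted p = 0.0271), a bound that rests on PD1+ Tconv library 1. Il17a had 0 and 9 counts in NK1.1+ cells, 7 and 0 in NK1.1- cells, and 5 and 12 in PD1+ Tconv.

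**Figure D3:**
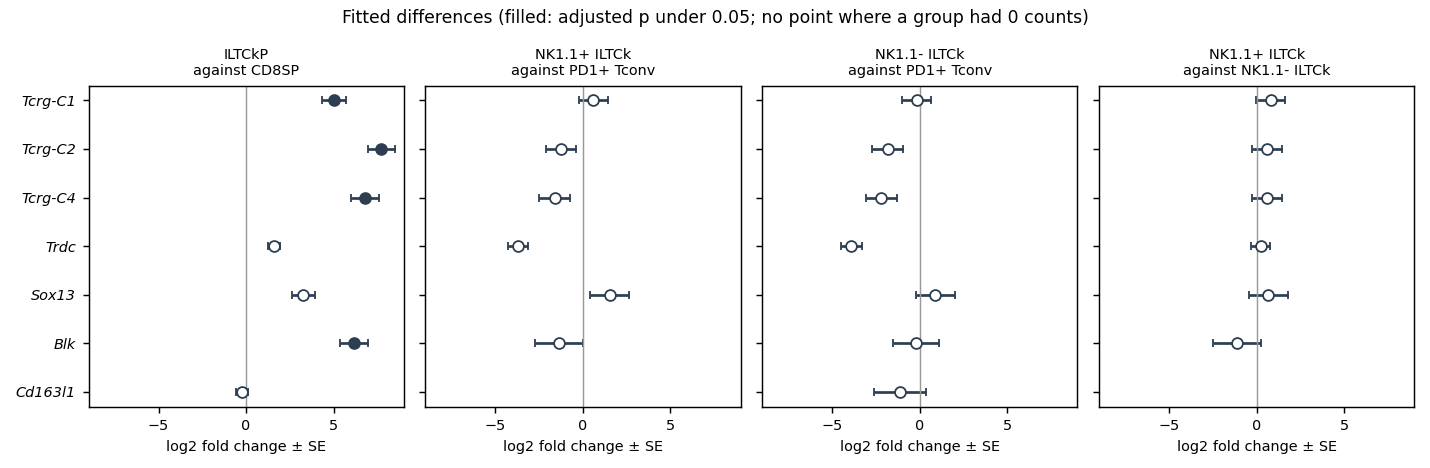
Fitted log2 fold change ± standard error of the 7 members tested in each comparison (x axis), with a filled point where the adjusted p was under 0.05 by edgeR; no point is drawn for Cd163l1 where NK1.1+ cells had 0 counts. Tcrg-C1, Tcrg-C2, Tcrg-C4 and Blk are filled in ILTCkP against CD8SP, and Trdc lies near -4 in both comparisons with PD1+ Tconv.

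Other cells' RNA differed between these libraries too. The 10 macrophage markers summed to 6325 to 17685 CPM in NK1.1+ cells and 2524 to 2896 CPM in NK1.1- cells, against 132 to 885 CPM in PD1+ Tconv. EdgeR called 0 of the 10. DESeq2 called 10 as higher in NK1.1+ and 3 as higher in NK1.1-, against 3.66% and 2.08% of all genes. The 8 epithelial and gland markers summed to 6630 to 6837 CPM in NK1.1+ cells and 5942 to 44594 CPM in NK1.1- cells, against 3242 to 263007 CPM in PD1+ Tconv. Lyn had 206 and 172 CPM in NK1.1+ cells and 83.0 and 50.4 CPM in NK1.1- cells, against 27.6 and 18.6 CPM in PD1+ Tconv (3.03 ± 0.45, adjusted p = 0.0875, and 1.53 ± 0.42, adjusted p = 0.361). The part of these cells in the CPM values of the members was not tested; counts per CD3 count are given next.

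Per 1000 CD3 counts the 3 γ constants gave 326 and 281 counts in NK1.1+ cells, 364 and 249 in NK1.1- cells, and 387 and 296 in PD1+ Tconv. The 3 groups overlapped, and the log2 differences from PD1+ Tconv were -0.16 for NK1.1+ and -0.17 for NK1.1-. The sum, most of it Tcrg-C2, hides an opposite order of the other γ constants. Tcrg-C1 gave 67.2 and 74.4 counts per 1000 CD3 counts in NK1.1+ cells and 70.8 and 46.9 in NK1.1- cells, against 29.5 and 14.2 in PD1+ Tconv, all 4 ILTCk libraries being above both PD1+ Tconv libraries. Tcrg-C4 gave 46.5 and 36.0 in NK1.1+ cells and 53.7 and 34.9 in NK1.1- cells, against 78.2 and 63.0 in PD1+ Tconv, all 4 being below. Tcrg-C2 gave 212 and 170 in NK1.1+ cells and 239 and 168 in NK1.1- cells, against 279 and 219 in PD1+ Tconv. Of the ILTCk libraries only NK1.1- library 1 lay above the lower PD1+ Tconv library. All the sums lay above the 49.1 and 101 of ILTCkP, which come from a table counted in other libraries, so no test was made between them.

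Trdc per 1000 CD3 counts was 1.19 and 3.67 in NK1.1+ cells and 1.97 and 2.30 in NK1.1- cells, against 10.8 and 11.1 in PD1+ Tconv. All 4 ILTCk libraries were below both PD1+ Tconv libraries, with log2 differences of -2.39 for NK1.1+ and -2.36 for NK1.1-. Without NK1.1+ library 1 the first was -1.58, and without NK1.1+ library 2 it was -3.20. Trdc was thus lower in ILTCk per CD3 count as well as in CPM. The sorting gate of NK1.1+ cells and PD1+ Tconv alike left out cells with a γδ receptor on the surface.

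**Figure D4:**
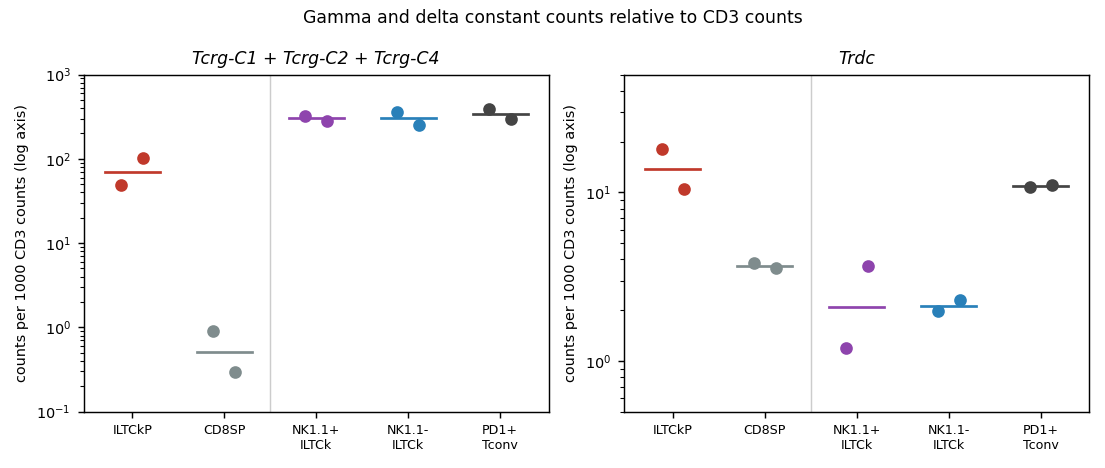
Counts of Tcrg-C1, Tcrg-C2 and Tcrg-C4 together (left) and of Trdc (right) per 1000 counts of the 4 CD3 genes, both on log axes; points are libraries and lines geometric means. The γ constants reach 249 to 387 in all 6 libraries of the tumour table, while Trdc is at 1.19 to 3.67 in the 4 ILTCk libraries and at 10.8 and 11.1 in PD1+ Tconv.

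The balance of γ over δ counts differed accordingly. The 3 γ constants had 273 and 76.4 counts for each Trdc count in NK1.1+ cells, 185 and 108 in NK1.1- cells, and 35.9 and 26.7 in PD1+ Tconv. In the thymus the same ratio was 2.73 and 9.65 in ILTCkP against 0.236 and 0.0841 in CD8SP, so CD8SP was the 1 group with more Trdc counts than γ counts. These ratios are of counts. The exons of Trdc, merged over its annotated transcripts, are longer, with 3865 bases against 914 to 985 for the γ constants.

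The mix of γ constant genes also differed between the ILTCk groups and PD1+ Tconv. Tcrg-C1 made up 20.1% and 25.6% of the counts of the 4 γ constants in NK1.1+ cells and 18.8% and 18.3% in NK1.1- cells, against 7.51% and 4.67% in PD1+ Tconv. Tcrg-C2 made up 63.4% and 58.5% in NK1.1+ cells and 63.5% and 65.5% in NK1.1- cells, against 70.9% and 72.1% in PD1+ Tconv, and Tcrg-C4 13.9% and 12.4% and then 14.3% and 13.6%, against 19.9% and 20.7%. For each of these 3 genes the 4 ILTCk libraries did not overlap the 2 PD1+ Tconv libraries. The shares are parts of the same total, so they are not independent, and they were not tested. In ILTCkP the shares were 18.9% and 15.6% for Tcrg-C1, 53.4% and 63.2% for Tcrg-C2 and 27.3% and 20.6% for Tcrg-C4. CD8SP had only 112 and 38 such counts, of which Tcrg-C1 made up 50% and 52.6%. All these shares depend on how reads shared by Tcrg-C1, Tcrg-C2 and Tcrg-C3 were counted, that of Tcrg-C4 through its denominator.

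**Figure D5:**
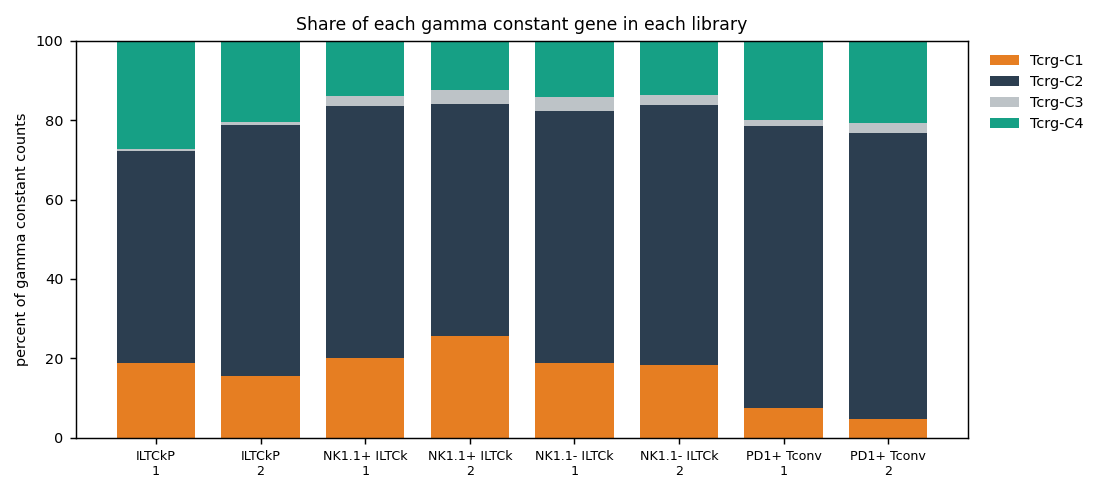
Share of Tcrg-C1, Tcrg-C2, Tcrg-C3 and Tcrg-C4 in the summed counts of the 4 γ constant genes, in percent, for each library of 4 groups (CD8SP is left out for its few counts). Tcrg-C1 takes 18.3% to 25.6% in the 4 ILTCk libraries and 4.67% and 7.51% in PD1+ Tconv.

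Among the γ variable segments Trgv2 had the most counts, with 66.1% to 67.7% of γ variable counts in NK1.1+ cells and 70.2% to 75.5% in NK1.1- cells against 79.3% to 80.5% in PD1+ Tconv; in ILTCkP it had 51.6% to 59.4%. Tcrg-V1 (Gm16602) had 33.9% and 18.8% in ILTCkP, 6.40% and 6.38% in NK1.1+ cells, 6.69% and 6.57% in NK1.1- cells, and 6.06% and 11.2% in PD1+ Tconv. In CPM, Trgv2 stood at 151 and 20.6 in NK1.1+ cells and 66.0 and 31.4 in NK1.1- cells, against 211 and 112 in PD1+ Tconv (adjusted p = 0.694 and 0.480). Of the 20 γ and δ segments tested in the tumour table, 0 were called by edgeR and 1, Trdc, by DESeq2 in each comparison with PD1+ Tconv. Their median log2 fold change was -0.93 for NK1.1+ and -1.02 for NK1.1-, against -0.04 over all genes in both. Trav14d-3-dv8 had 0.804 and 0.0903 CPM in NK1.1+ cells against 3.50 and 1.22 CPM in PD1+ Tconv (adjusted p = 0.429).

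For the αβ constants and CD3 genes the median log2 fold change of the 7 tested was -1.19 for NK1.1+ and -1.67 for NK1.1-, with 0 called by either tool. Trac had 211 and 47.7 CPM in NK1.1+ cells and 165 and 107 CPM in NK1.1- cells, against 680 and 246 CPM in PD1+ Tconv (adjusted p = 0.359 and 0.434). Cd247 had 81.6 and 20.5 CPM and 69.7 and 57.5 CPM, against 238 and 166 CPM (adjusted p = 0.258 and 0.394). The fitted values of Tcrg-C2 and Tcrg-C4 were likewise below 0 without a call, and that of Trdc was further below 0.

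In the list of γδ lineage and IL-17 genes, 26 of 28 were tested in the tumour table. EdgeR called 0 in either comparison with PD1+ Tconv, as it did over all genes. DESeq2 called 5 for NK1.1+ (2 higher, 3 lower), against 3.66% of all genes as higher and 3.24% as lower. For NK1.1- it called 2 (1 higher, 1 lower), against 2.08% and 1.72%. The median log2 fold change was -0.39 for NK1.1+ and 0.35 for NK1.1-, against -0.04 over all genes in both. The genes that DESeq2 called as higher are not reported here by name. Il7r, the interleukin-7 receptor, had 9.92 and 9.88 CPM in NK1.1+ cells against 43.3 and 42.6 CPM in PD1+ Tconv (-2.12 ± 0.38, adjusted p = 0.106). Cd27, a costimulatory receptor lacking on γδ cells that make IL-17, had 43.4 and 15.3 CPM in NK1.1+ and 37.4 and 24.2 CPM in NK1.1- cells, against 166 and 140 CPM in PD1+ Tconv (adjusted p = 0.168 and 0.351).

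Between the ILTCk groups, 0 of 7 members differed by edgeR in NK1.1+ against NK1.1- cells, where 0% of 18091 genes were called and 712 had an unadjusted p under 0.05; limma-voom called 0 genes, and DESeq2 0 members and 0.315% of genes, 0.199% as higher and 0.116% as lower. The log2 fold changes were 0.79 ± 0.84 for Tcrg-C1, 0.60 ± 0.85 for Tcrg-C2, 0.59 ± 0.85 for Tcrg-C4, 0.21 ± 0.55 for Trdc, 0.65 ± 1.101 for Sox13 and -1.13 ± 1.36 for Blk, each with an adjusted p of 0.9998. NK1.1+ library 1 was the highest of the 4 for all 3 γ constants and NK1.1+ library 2 the lowest. Without NK1.1+ library 1 the 3 γ values were -0.74, -1.33 and -1.38 and that of Trdc was -0.23. Cd163l1 was at least 8.98-fold lower in NK1.1+ than in NK1.1- cells, from 0 counts against 29, of which 22 were in NK1.1- library 2. With standard errors of this size the values do not show that the groups are alike.

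For Trdc, Tcrg-C2 and Tcrg-C4 the difference from the reference group was not the same in thymus and tumour. The reference was CD8SP in the thymus and PD1+ Tconv in the tumour table, which are unlike cells. In 1 edgeR fit over all 10 libraries, added after the data were seen, the thymic difference (ILTCkP minus CD8SP) minus the tumour difference (NK1.1+ cells minus PD1+ Tconv) passed the threshold for Tcrg-C2, Tcrg-C4 and Trdc, where 0.611% of 19488 genes did; with NK1.1- cells in place of NK1.1+ the same 3 passed, and 0.703% of genes did. For Trdc the difference was 5.16 ± 0.66 with NK1.1+ (adjusted p = 0.0154) and 5.34 ± 0.66 with NK1.1- (adjusted p = 0.0163). Tcrg-C1 (adjusted p = 0.182 and 0.136), Blk (0.102 and 0.166) and Sox13 (0.785 and 0.594) did not pass. Mean Tcrg-C2 was 152 CPM in ILTCkP, 238 in NK1.1+ and 157 in NK1.1- cells, but 0.723 in CD8SP and 566 in PD1+ Tconv. Tcrg-C4 was at 56.9, 51.9 and 34.5 CPM, with 0.510 and 160 in the references. Trdc was at 45.8, 1.84 and 1.59 CPM, with 15.3 and 24.2 in the references. Tissue, mouse model, sorting gate, reference cells and table all differ between the 2 contrasts and cannot be told apart.

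Ordered by group mean, Tcrg-C2 was at 566 ± 263 CPM in PD1+ Tconv, 238 ± 247 in NK1.1+ cells, 157 ± 72.2 in NK1.1- cells, 152 ± 100 in ILTCkP and 0.723 ± 0.440 in CD8SP (SD, n = 2 each). The tables were scaled separately, and neighbours in this order overlapped except ILTCkP and CD8SP. Trdc had another order: 45.8 ± 13.4 CPM in ILTCkP, 24.2 ± 6.92 in PD1+ Tconv, 15.3 ± 1.37 in CD8SP, 1.84 ± 0.686 in NK1.1+ cells and 1.59 ± 0.179 in NK1.1- cells. The first 3 groups did not overlap each other, and the 2 ILTCk groups overlapped below them. Per kilobase of exon, merged over the annotated transcripts of each gene, Tcrg-C2 exceeded Trdc in ILTCkP (166 ± 110 against 11.8 ± 3.46 CPM per kb). It fell short of Trdc in CD8SP (0.791 ± 0.482 against 3.95 ± 0.354 CPM per kb).

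The genes whose pattern was most like that of Tcrg-C2 over the 10 libraries were, by Pearson correlation of log2(CPM + 1) among 11679 genes, Tbx21 (0.978), H2-Q6 (0.962), Entpd1 (0.952), Cd200r1 (0.949) and Gcnt1 (0.945). Tbx21, which encodes the transcription factor T-bet, had 32.004 and 47.9 CPM in ILTCkP against 4.24 and 3.58 CPM in CD8SP, and 81.6 and 24.1 CPM in NK1.1+ cells and 45.4 and 21.7 CPM in NK1.1- cells against 156 and 78.1 CPM in PD1+ Tconv. Among receptor segments, Tcrg-C4 (0.985), Trgv2 (0.979) and Tcrg-C1 (0.953) were most like Tcrg-C2, and Trdc was not (-0.08). The genes most like Trdc were Cxx1b (0.978), Dedd2 (0.973), Tle3 (0.965), Lpin1 (0.962) and Hivep2 (0.961); its nearest receptor segment was Trdv1 (0.589). The points of these correlations are libraries that share group, table and depth, so the coefficients are descriptions only.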

How the data were processed

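Bulk RNA-seq of sorted mouse T cells was used as whole-number read counts per gene, in 2 tables that the authors deposited and describe as raw counts, 1 for the 4 thymic and 1 for the 6 other libraries. The build was mm10 and DESeq was used, per the submitters' processing notes; no aligner, counting program or annotation is given in the sources used here. The 4 single-cell libraries, for which these notes list Cell Ranger 3.0.2 with Seurat 2.3.4, were not analysed here.

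From the counts, each table was fitted on its own with edgeR 4.0.16 (R 4.3.3): filterByExpr, TMM scaling, robust quasi-likelihood test, Benjamini-Hochberg adjustment over all genes tested, and a call at an adjusted p under 0.05. The 6 libraries of the tumour table shared 1 estimate of the spread. Levels are CPM scaled by TMM. Where a group had 0 counts, 3 counts were put in its place and the fold is a bound that covers counting error only. Alternatives were RLE scaling, DESeq2 1.42.0, limma-voom (limma 3.58.1), no filter, a filter of 50 counts in 2 libraries, a block for the replicate number, the 4 compared libraries alone and each library left out. The code was tested on simulated data. Coordinates and sequences came from GENCODE M21 (GRCm38), and the name of Gm16602 from RefSeq (GRCm38.p6).

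The members, lists, tests and naming rule were chosen with earlier results of these data known. The rule names all members, up to 4 genes of each other list with the smallest adjusted p, receptor constants, and the 5 genes most like Tcrg-C2 and most like Trdc among those with at least 10 counts in 2 libraries of each table, leaving out predicted genes. After the data were seen, Trgv2, the Trgj segments and Gm16602 were added to the segment list, Trdmt1 and Trdn were left out of it, the fit over both tables and the counts of single γ constants per CD3 count were added, and further segments and marker genes were named. Some genes of these lists are counted in them but not reported here by name.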

Additional observations from a re-analysis of the deposited data

Results flagged for a closer look

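For 3 members the difference from the reference group was not the same in thymus and tumour. The references, CD8SP and PD1+ Tconv, are unlike cells, so a value can come from them as well as from the ILTCk side. Each value is the thymic difference (ILTCkP minus CD8SP) minus the tumour difference, in log2, from 1 edgeR fit over 10 libraries with 2 a group, and each passed an adjusted p of 0.05. For Tcrg-C2 it was 8.84 ± 1.37 with NK1.1+ ILTCk minus PD1+ Tconv (adjusted p = 0.0305) and 9.38 ± 1.39 with NK1.1- ILTCk minus PD1+ Tconv (adjusted p = 0.0290). For Tcrg-C4 it was 8.31 ± 1.41 (adjusted p = 0.0422) and 8.83 ± 1.43 (adjusted p = 0.0317) in the same order. For Trdc it was 5.16 ± 0.66 (adjusted p = 0.0154) and 5.34 ± 0.66 (adjusted p = 0.0163). In CPM, all libraries moved in opposite directions in the 2 contrasts except for Tcrg-C2 with NK1.1+ ILTCk, where the groups overlapped. Per 1000 CD3 counts, Tcrg-C2 in NK1.1- ILTCk (239 and 168) overlapped PD1+ Tconv (279 and 219). In NK1.1+ ILTCk (212 and 170) it lay below both. The tumour side by itself was not called for any of the 3 by edgeR with its low-count filter and no block; with no filter or with a replicate block some were.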

How the results depend on the processing

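In the thymus the calls of Tcrg-C1, Tcrg-C2, Tcrg-C4 and Blk held under every alternative run; Trdc and Sox13 joined them with DESeq2, no filter, the 50-count filter and the replicate block. Members called there ranged from 4 to 6 with a library left out. Genes called were 689, and 2022 with DESeq2, 2535 with no filter, and 592 to 7017 with a library left out (2812 without ILTCkP 1, 7017 without ILTCkP 2). For NK1.1+ ILTCk against PD1+ Tconv, 0 genes became 1250 with DESeq2, 3 with limma-voom, 1249 with no filter and 0 to 35 with a library left out (35 without NK1.1+ 1); 0 members became 2 with DESeq2 and 3 with no filter. For NK1.1- ILTCk against PD1+ Tconv, 0 genes became 687 with DESeq2 and 799 with no filter, and 0 members became 1 and 3. With no filter edgeR called Trdc and Tcrg-C4 in both of these comparisons, Cd163l1 for NK1.1+ and Tcrg-C2 for NK1.1- ILTCk. Between the ILTCk groups 0 genes became 57 and 167. The cause of these differences was not tested.

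Replicate numbers pair the samples only by number: deviations of same-numbered libraries correlated at 0.09 in the thymus and 0.32 to 0.36 in the tumour table, with 2 pairs each. With the replicate block, genes called were 2212 in the thymus, 755 for NK1.1+ and 298 for NK1.1- ILTCk against PD1+ Tconv, and members called 6, 1 and 1, the last being Trdc in both (adjusted p = 0.0110 for NK1.1+ and 0.0286 for NK1.1- ILTCk).

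Signs of 16 uncalled member values turned with a library left out, within these lowest and highest log2 fold changes. NK1.1+ ILTCk against PD1+ Tconv ran from -0.93 (without NK1.1+ 1; -0.04 without PD1+ Tconv 2) to 1.70 for Tcrg-C1, -0.16 to 3.40 for Sox13 and -3.38 to 0.48 for Blk. NK1.1- ILTCk against PD1+ Tconv ran from -0.81 to 0.91 for Tcrg-C1 (0.26 without NK1.1- 2), -0.049 to 2.76 for Sox13, -1.81 to 1.61 for Blk (0.50 without NK1.1- 2) and -2.61 to 1.86 for Cd163l1. NK1.1+ against NK1.1- ILTCk ran from -0.74 to 1.52 for Tcrg-C1, -1.33 to 1.39 for Tcrg-C2, -1.38 to 1.39 for Tcrg-C4, -0.23 to 0.55 for Trdc, -1.04 to 1.59 for Sox13 and -3.14 to 0.44 for Blk. Of the counts per 1000 CD3 counts, the log2 γ difference of NK1.1+ ILTCk from PD1+ Tconv was 0.30 per αβ receptor constant count and ran from -0.35 to 0.028 with a library left out; that of NK1.1- ILTCk ran from -0.44 to 0.10. Between the ILTCk groups the γ value ran from -0.27 to 0.28 and the δ value from -0.83 to 0.79, with 0.31 per αβ receptor constant count. Scaling by total count put Cd163l1 at 7.94 CPM in ILTCkP. Low counts of Blk, Cd163l1 and Il17a limit what the tumour table can show for them.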
